A study of Mus musculus with 16 samples.

Results

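The epicardial genes described here were 10 genes that mark the outer cell layer of the heart: the transcription factor genes Wt1, Tbx18, Tcf21, Scx and Bnc1, and the genes Upk3b, Upk1b, Lrrn4, Itga4 and Sema3d, whose products sit at the cell surface or are secreted. They were chosen by symbol, not by their counts, but with earlier results of these data known. They were found through the Entrez gene IDs of the deposited table, so they were 10 of 27179 gene IDs. RNA was sequenced from whole hearts of 16 mouse embryos at embryonic day 10.5. Each of the 4 genotypes had 4 hearts: Ing4+/- Ing5-/- (3 of 4 alleles lost, 1 of Ing4 and 2 of Ing5), Ing4+/- Ing5+/+ (1 Ing4 allele lost), Ing4+/+ Ing5-/- (no intact Ing5 allele) and Ing4+/+ Ing5+/+ (wild-type). ING4 and ING5 are chromatin proteins of histone acetyltransferase complexes, and the series title names the epicardial cell lineage as a subject of the study. How the mutant alleles were made, and whether they were lost in all cells, is not stated in the labels.

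The epicardium arises from the proepicardium, a cluster of cells at the venous pole of the looping heart, which attach to the bare heart muscle and spread over it as a mesothelial sheet. WT1, TBX18 and TCF21 are transcription factors used to trace these cells. Some epicardial cells later leave the sheet and become fibroblasts and mural cells of the coronary vessels. Uroplakins and LRRN4 are surface proteins of mesothelia, and integrin alpha 4 holds the sheet to the heart.

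The hearts came from 7 litters, and total counts ranged from 19753100 to 35664331 per heart. Ing5 averaged 21.0 ± 2.75 CPM (read counts scaled to the library size) in Ing4+/- Ing5-/- hearts, 37.2 ± 3.70 in Ing4+/- Ing5+/+ hearts, 23.5 ± 4.48 in Ing4+/+ Ing5-/- hearts and 33.5 ± 3.46 in Ing4+/+ Ing5+/+ hearts (SD, n = 4 each). Ing4 averaged 34.3 ± 1.90 CPM in Ing4+/- Ing5-/- hearts, 34.1 ± 1.85 in Ing4+/- Ing5+/+ hearts, 51.0 ± 7.31 in Ing4+/+ Ing5-/- hearts and 39.5 ± 7.60 in Ing4+/+ Ing5+/+ hearts. Ing5 reads thus remained in Ing5-/- hearts, and counts per gene do not separate deleted from kept exons. Ing5 ranged from 18.5 to 25.1 CPM in 7 of the 8 hearts labelled Ing5-/- and from 28.9 to 42.3 CPM in the 8 labelled Ing5+/+. The library labelled Ing4+/+ Ing5-/- replicate 1 went against its label, with 29.3 CPM of Ing5, above the 28.9 CPM of wild-type replicate 3. Ing4 was at most 36.3 CPM in the 8 hearts labelled Ing4+/- and ranged from 42.6 to 60.7 CPM in 7 of the 8 labelled Ing4+/+. The library labelled Ing4+/+ Ing5+/+ replicate 2 went against its label, with 28.2 CPM of Ing4, below all 8 hearts labelled Ing4+/-. All genotypes below are those of the labels. Fits that leave out each of these libraries singly are given for some results only. Wild-type levels, ratios to Wt1, counts of genes without overlap and the fit of only Ing4+/- Ing5-/- and wild-type hearts all include wild-type replicate 2. All 8 epicardial markers, 7 of them among the 10 genes, were detected in every group. The 5 urogenital ridge markers, a tissue that shares Wt1, summed to at most 0.974 CPM in any heart. Of the hearts, the library labelled Ing4+/+ Ing5-/- replicate 1 had the highest level of all 16 hearts for all 10 genes, the lowest summed cardiomyocyte markers and 22.6 CPM of liver bud markers. Ing4+/- Ing5+/+ replicate 4, with 16.5 CPM of liver bud markers, and Ing4+/- Ing5-/- replicate 2, with the most haemoglobin, also stood apart, and 1 alternative fit left out these 3 libraries.

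Promoter sequence was matched for 7 of the 10 genes in a RefSeq table of GRCm38.p6, namely Tbx18, Tcf21, Bnc1, Upk3b, Lrrn4, Itga4 and Sema3d; Wt1, Scx and Upk1b are named only. Printed here are the 250 bases before the annotated start of 3 genes whose levels across hearts are compared below: Upk3b and Tcf21, which moved together, and Itga4, which moved least with the others. Upk3b lies at chr5:136038246-136038495 (plus strand), Tcf21 at chr10:22820144-22820393 (minus strand) and Itga4 at chr2:79255176-79255425 (plus strand), each read 5′ to 3′ with matches to searched motifs in capitals.
Upk3b: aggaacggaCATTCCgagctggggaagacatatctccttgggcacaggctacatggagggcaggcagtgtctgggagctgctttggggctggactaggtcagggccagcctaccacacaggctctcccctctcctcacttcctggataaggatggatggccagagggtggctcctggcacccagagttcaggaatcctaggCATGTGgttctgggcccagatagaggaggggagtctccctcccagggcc
Tcf21: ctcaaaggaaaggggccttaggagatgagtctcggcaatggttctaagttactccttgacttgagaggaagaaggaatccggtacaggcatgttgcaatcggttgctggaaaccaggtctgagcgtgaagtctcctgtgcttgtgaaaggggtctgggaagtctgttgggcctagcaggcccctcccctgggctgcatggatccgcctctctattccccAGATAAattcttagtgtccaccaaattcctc
Itga4: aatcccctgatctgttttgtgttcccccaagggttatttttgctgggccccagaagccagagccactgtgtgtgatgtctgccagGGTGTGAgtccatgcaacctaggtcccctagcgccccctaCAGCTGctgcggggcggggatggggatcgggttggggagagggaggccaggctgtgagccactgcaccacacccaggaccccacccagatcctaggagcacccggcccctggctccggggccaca
The motifs were the E-box CANNTG of basic helix-loop-helix factors, GCGTGGGAG of the WT1 and EGR zinc fingers, GGTGTGA of T-box factors, GGAATG of TEAD factors and AGATAA of GATA factors, each searched on both strands of 300-base windows. Upk3b held CATTCC, the reverse complement of the TEAD letters, at -241 and an E-box, CATGTG, at -49 from the start. Tcf21 held the GATA letters at -31, and Itga4 held the T-box letters at -165 and an E-box, CAGCTG, at -125. Among the other windows, Lrrn4 held the TEAD letters at -196, Tbx18 an E-box at -168, and Sema3d E-boxes at -210, -191 and -171. E-box letters stood in 4 of 7 windows against 72.3% of 32851 promoters, TEAD letters in 2 of 7 against 14.7%, GATA letters in 1 of 7 against 11.2% and T-box letters in 1 of 7 against 3.98%. The WT1 letters stood in 0 of 7 windows against 0.472% of promoters. No motif was held by all 7 windows, and a match of letters is a description of the sequence.

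Levels of different genes were compared per gene length, as RPKM, in wild-type hearts. Upk3b was the highest, at 82.6 ± 3.66 RPKM, followed by Tcf21 at 39.6 ± 4.51, Lrrn4 at 25.6 ± 1.57, Upk1b at 24.8 ± 1.31, Tbx18 at 22.2 ± 1.17 and Wt1 at 21.9 ± 0.293 (SD, n = 4). Itga4 followed at 12.5 ± 0.973 RPKM, Bnc1 at 5.65 ± 0.767, Sema3d at 5.50 ± 0.334 and Scx at 3.59 ± 0.747. The wild-type ranges of Lrrn4 and Upk1b overlapped, as did those of Upk1b and Tbx18, of Tbx18 and Wt1, and of Bnc1 and Sema3d, so the order of these neighbours was not resolved. Wild-type hearts were tight for most of the genes: the coefficient of variation was 1.34% for Wt1 and 4.43% for Upk3b, and reached 20.8% for Scx, which had 58 to 145 reads in those hearts. Ing4+/+ Ing5-/- hearts spread far more, from 39.3% for Itga4 to 72.0% for Sema3d.

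**Figure D1:**
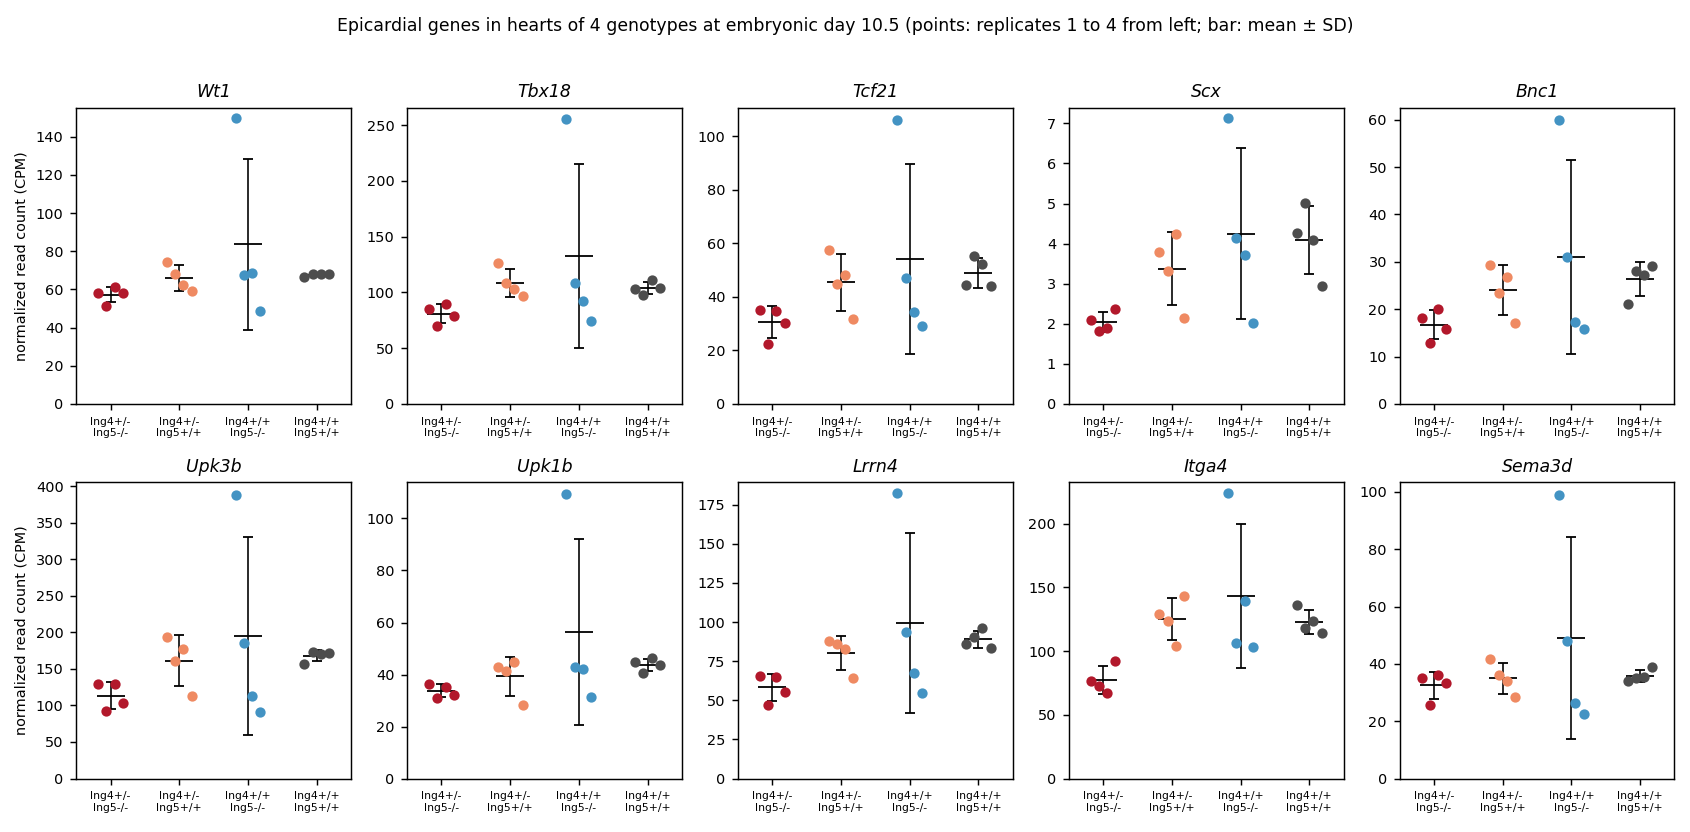
Normalized read count (CPM, y axis from 0) of each of the 10 genes in hearts of Ing4+/- Ing5-/-, Ing4+/- Ing5+/+, Ing4+/+ Ing5-/- and Ing4+/+ Ing5+/+ embryos; points are replicates 1 to 4 from the left and bars are mean ± SD. The Ing4+/- Ing5-/- points lie below all wild-type points in 9 panels, and the library labelled Ing4+/+ Ing5-/- replicate 1 is the highest point in all 10.

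In Ing4+/- Ing5-/- hearts, which had lost 3 of the 4 alleles, all 10 genes averaged lower than in wild-type hearts, and for 9 of them every mutant heart was below every wild-type heart. Scx, Tcf21 and Itga4 differed the most on the log2 scale and Sema3d the least. None of the 10 passed the test across all genes (edgeR quasi-likelihood, Benjamini-Hochberg adjusted p under 0.05), against 0.855% of the 15785 genes tested, and DESeq2 and limma-voom also called 0 of the 10. At an unadjusted p under 0.05, Scx and Itga4 passed, against 11.4% of all genes. The 9 genes without overlap compare with 4.71% of all genes that were lower in this way, and the 10 negative log2 fold changes with 49.2% of all genes. The 10 genes varied together across hearts (median Pearson r of 0.915 with genotype means subtracted). Such counts, here and below, are thus not 10 independent observations, and the shares do not measure how rare they are. The median log2 fold change of the 10 was -0.59 against 0.00 over all genes. A whole heart holds many cell types, so fewer epicardial cells and less of each RNA per cell cannot be told apart.

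Wt1 (gene ID 22431, chr2:105126529-105173614 in GRCm38, as are all positions) encodes a zinc finger transcription factor needed for the epicardium to form. It had 58.0, 51.6, 61.1 and 58.3 CPM in Ing4+/- Ing5-/- hearts and 74.5, 68.0, 62.4 and 59.2 CPM in Ing4+/- Ing5+/+ hearts (replicates 1 to 4, here and below). Ing4+/+ Ing5-/- hearts had 149.7, 67.7, 68.6 and 48.5 CPM, and wild-type hearts had 66.4, 68.2, 68.2 and 68.1 CPM. The wild-type hearts were nearly equal, and all 4 Ing4+/- Ing5-/- hearts lay below them by a small margin. Wt1 averaged 57.2 ± 4.03 CPM in Ing4+/- Ing5-/- hearts and 67.7 ± 0.907 in wild-type hearts, a log2 fold change of -0.24 ± 0.26 (SE; edgeR adjusted p = 0.787).

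Tbx18 (gene ID 76365, chr9:87702800-87731260), a T-box transcription factor gene of the epicardium and the sinus horn muscle, had 84.9, 70.0, 89.4 and 78.5 CPM in Ing4+/- Ing5-/- hearts and 126, 108, 103 and 96.5 CPM in Ing4+/- Ing5+/+ hearts. Levels were 255, 109, 91.9 and 74.7 CPM in Ing4+/+ Ing5-/- hearts and 103, 98.1, 111 and 104 CPM in wild-type hearts. Here the Ing4+/- Ing5-/- hearts lay below every heart with intact Ing5, of either Ing4 genotype. Singly, 4.71% of all genes were lower in this way against wild-type hearts and 4.88% against Ing4+/- Ing5+/+ hearts, and the joint share was not counted. The log2 fold change was -0.36 ± 0.30 against wild-type hearts (edgeR adjusted p = 0.706) and -0.43 ± 0.30 against Ing4+/- Ing5+/+ hearts (adjusted p = 0.571). The summed sinus horn markers Shox2, Hcn4 and Vsnl1 ranged from 56.1 to 113 CPM in Ing4+/- Ing5-/- hearts and from 138 to 189 CPM in Ing4+/- Ing5+/+ hearts. The sum was 71.1 to 162 CPM in Ing4+/+ Ing5-/- hearts and 91.95 to 178 CPM in wild-type hearts, which overlapped the Ing4+/- Ing5-/- range. Of the 3, Hcn4 fell against Ing4+/- Ing5+/+ hearts (edgeR), against 1.16% of all genes called. Against wild-type hearts 0 of the 3 were called, against 0.855%. The part of these markers in the Tbx18 difference was not tested.

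Tcf21 (gene ID 21412, chr10:22817263-22820143) encodes a basic helix-loop-helix factor needed for the cardiac fibroblasts that the epicardium gives. Its levels were 35.1, 22.5, 34.7 and 30.1 CPM in Ing4+/- Ing5-/- hearts and 57.4, 44.7, 48.0 and 31.7 CPM in Ing4+/- Ing5+/+ hearts. They were 106, 47.0, 34.1 and 29.1 CPM in Ing4+/+ Ing5-/- hearts and 44.5, 55.3, 52.1 and 44.1 CPM in wild-type hearts. Replicate 2 was the lowest Ing4+/- Ing5-/- heart, and the highest of that group, at 35.1 CPM, was still below the lowest wild-type heart, at 44.1 CPM. Tcf21 averaged 30.6 ± 5.83 CPM in Ing4+/- Ing5-/- hearts and 49.0 ± 5.58 in wild-type hearts, a log2 fold change of -0.68 ± 0.35 (edgeR adjusted p = 0.501).

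Scx (gene ID 20289, chr15:76457411-76459468), the scleraxis gene, encodes a basic helix-loop-helix factor of tendon progenitors that also marks a set of proepicardial cells. It was the least abundant of the 10, with 62, 44, 51 and 57 reads or 2.10, 1.83, 1.90 and 2.38 CPM in Ing4+/- Ing5-/- hearts, and 3.80, 3.33, 4.25 and 2.13 CPM in Ing4+/- Ing5+/+ hearts. Ing4+/+ Ing5-/- hearts had 7.12, 4.14, 3.73 and 2.01 CPM, and wild-type hearts had 4.27, 5.00, 4.10 and 2.95 CPM from 92, 145, 108 and 58 reads. All 4 Ing4+/- Ing5-/- hearts lay below the wild-type hearts, while 1 Ing4+/- Ing5+/+ heart and 1 Ing4+/+ Ing5-/- heart fell in their range. The mean was 2.05 ± 0.248 CPM in Ing4+/- Ing5-/- hearts and 4.08 ± 0.848 in wild-type hearts, a log2 fold change of -0.996 ± 0.30, the largest difference among the 10 (edgeR adjusted p = 0.168). Scx overlaps Bop1, which lies on the opposite strand, with 0 shared exon bases and a mean Bop1 count of 1892 against 92.1 for Scx; the library kit keeps strand, but the strand setting of the counting was not stated in the labels. Among tendon and cushion mesenchyme markers, 0 of 4 tested passed, with a median log2 fold change of -0.20.

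Bnc1 (gene ID 12173, chr7:81966657-81992299), the basonuclin 1 gene, encodes a zinc finger protein of mesothelium and epidermis. It stood at 18.1, 12.9, 20.0 and 15.7 CPM in Ing4+/- Ing5-/- hearts and at 29.2, 23.4, 26.7 and 17.0 CPM in Ing4+/- Ing5+/+ hearts. It stood at 60.0, 31.1, 17.2 and 15.9 CPM in Ing4+/+ Ing5-/- hearts and at 21.1, 28.0, 27.2 and 29.2 CPM in wild-type hearts. The gap between Ing4+/- Ing5-/- and wild-type hearts was narrow, 20.0 CPM against 21.1 CPM at its nearest. The log2 fold change was -0.66 ± 0.36 (edgeR adjusted p = 0.529).

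Among the surface genes, Upk3b (gene ID 100647, chr5:136038496-136044993) encodes a uroplakin of mesothelial membranes. Counts were 129, 92.4, 129 and 103 CPM in Ing4+/- Ing5-/- hearts and 193, 161, 177 and 112 CPM in Ing4+/- Ing5+/+ hearts. Ing4+/+ Ing5-/- hearts stood at 388, 185, 113 and 91.3 CPM, and wild-type hearts at 157, 173, 170.4 and 172 CPM. The Ing4+/+ Ing5-/- hearts thus spread widely and the wild-type hearts lay in a narrow band, with all Ing4+/- Ing5-/- hearts below that band. It averaged 113 ± 18.5 CPM in Ing4+/- Ing5-/- hearts and 168 ± 7.45 in wild-type hearts, a log2 fold change of -0.57 ± 0.37 (edgeR adjusted p = 0.610).

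Upk1b (gene ID 22268, chr16:38773182-38800203) encodes a tetraspanin of the same uroplakin plaques. It was at 36.4, 31.1, 35.3 and 32.1 CPM in Ing4+/- Ing5-/- hearts and at 42.9, 41.4, 44.8 and 28.3 CPM in Ing4+/- Ing5+/+ hearts. It was at 109, 42.8, 42.2 and 31.4 CPM in Ing4+/+ Ing5-/- hearts and at 44.7, 40.7, 46.2 and 43.8 CPM in wild-type hearts. Replicate 4 of Ing4+/- Ing5+/+ lay below all Ing4+/- Ing5-/- hearts and replicate 4 of Ing4+/+ Ing5-/- lay within their range; both came from litter 7. The log2 fold change of Ing4+/- Ing5-/- against wild-type hearts was -0.38 ± 0.31 (edgeR adjusted p = 0.706).

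Lrrn4 (gene ID 320974, chr2:132866686-132894010), a gene for a leucine-rich repeat membrane protein of mesothelia, had 65.6, 47.3, 64.9 and 55.5 CPM in Ing4+/- Ing5-/- hearts and 88.2, 85.7, 82.7 and 64.6 CPM in Ing4+/- Ing5+/+ hearts. It had 182, 93.4, 67.3 and 54.8 CPM in Ing4+/+ Ing5-/- hearts and 86.2, 90.4, 96.0 and 83.5 CPM in wild-type hearts. The lowest wild-type heart exceeded the highest Ing4+/- Ing5-/- heart, and 1 Ing4+/- Ing5+/+ heart fell among the Ing4+/- Ing5-/- hearts. Lrrn4 averaged 58.3 ± 8.67 CPM in Ing4+/- Ing5-/- hearts and 89.0 ± 5.45 in wild-type hearts, a log2 fold change of -0.61 ± 0.30 (edgeR adjusted p = 0.466).

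Itga4 (gene ID 16401, chr2:79255426-79333114) encodes integrin alpha 4, which pairs with integrin beta 1, binds VCAM1 and fibronectin and keeps the epicardium attached to the heart. It had 76.3, 72.8, 67.1 and 92.4 CPM in Ing4+/- Ing5-/- hearts and 129, 123, 104 and 143 CPM in Ing4+/- Ing5+/+ hearts. Ing4+/+ Ing5-/- hearts were at 225, 107, 139 and 104 CPM and wild-type hearts at 136, 118, 123 and 114 CPM. Itga4 was the only one of the 10 whose Ing4+/- Ing5-/- hearts all lay below all 12 hearts of the other genotypes. Singly, 4.71% of all genes were lower in this way against wild-type, 4.88% against Ing4+/- Ing5+/+ and 1.64% against Ing4+/+ Ing5-/- hearts. The share of all genes below all 12 hearts at once was not counted. The mean was 77.1 ± 10.8 CPM in Ing4+/- Ing5-/- hearts, 125 ± 16.4 in Ing4+/- Ing5+/+ hearts, 143 ± 56.4 in Ing4+/+ Ing5-/- hearts and 123 ± 9.57 in wild-type hearts. The log2 fold change against wild-type hearts was -0.67 ± 0.20 (edgeR adjusted p = 0.189). Itga4 shares 1124 exon bases with Cerkl on the opposite strand, whose mean count was 3.62.

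Sema3d (gene ID 108151, chr5:12383161-12588953), which encodes a secreted semaphorin of proepicardial cells that signals through neuropilins and plexins, was the exception. Its levels were 35.0, 25.7, 36.1 and 33.3 CPM in Ing4+/- Ing5-/- hearts and 41.5, 36.0, 34.0 and 28.5 CPM in Ing4+/- Ing5+/+ hearts. They were 99.0, 47.9, 26.2 and 22.5 CPM in Ing4+/+ Ing5-/- hearts and 34.0, 35.0, 35.4 and 39.0 CPM in wild-type hearts. The Ing4+/- Ing5-/- and wild-type hearts overlapped. Sema3d averaged 32.5 ± 4.72 CPM in Ing4+/- Ing5-/- hearts and 35.9 ± 2.18 in wild-type hearts, a log2 fold change of -0.14 ± 0.37 (edgeR adjusted p = 0.928).

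**Figure D2:**
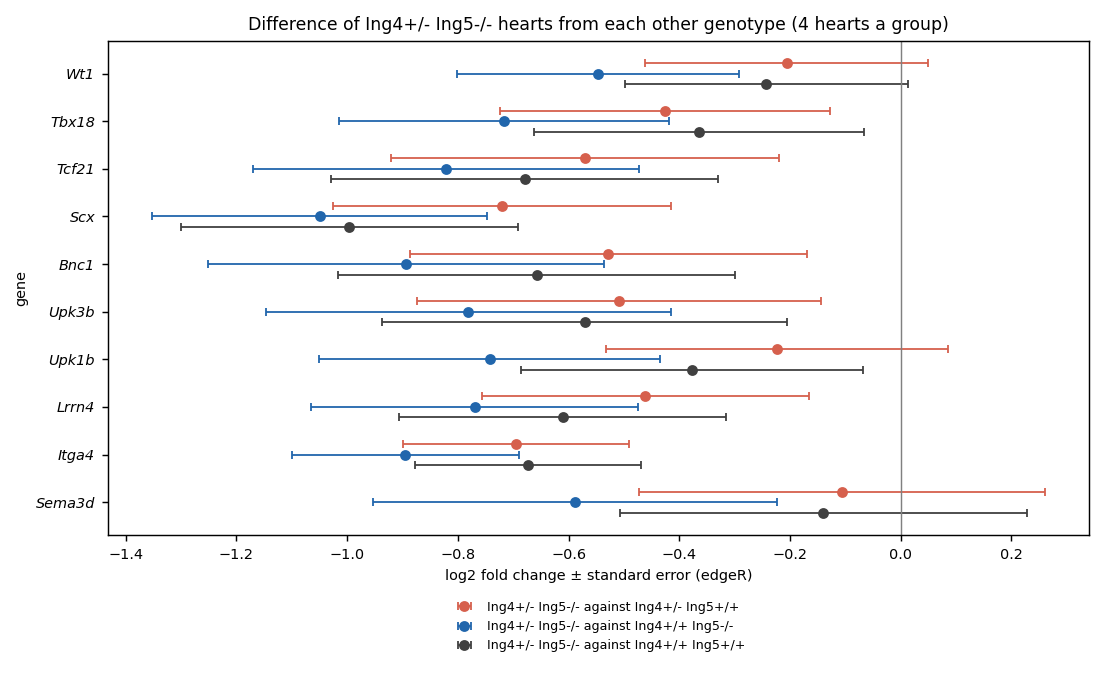
Log2 fold change ± standard error (x axis, edgeR) of each of the 10 genes (y axis) in Ing4+/- Ing5-/- hearts against Ing4+/+ Ing5+/+, Ing4+/- Ing5+/+ and Ing4+/+ Ing5-/- hearts, 4 hearts a group. All 30 points lie below 0, from -1.05 for Scx against Ing4+/+ Ing5-/- hearts to -0.11 for Sema3d against Ing4+/- Ing5+/+ hearts, and none passed the test across all genes.

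The calls differed between fits of different hearts. When the edgeR fit held only the 8 Ing4+/- Ing5-/- and wild-type hearts, 8 of the 10 genes fell, all but Wt1 and Sema3d, with adjusted p = 0.000666 for Itga4, 0.0116 for Tbx18 and 0.0144 for Scx, against 3.07% of all genes called in that fit. When the library labelled Ing4+/+ Ing5-/- replicate 1 alone was left out, Scx (adjusted p = 0.0435) and Itga4 (0.00408) fell, at log2 fold changes of -0.997 for Scx and -0.67 for Itga4, against 2.02% of all genes. The same 2 genes fell without the 3 libraries, against 2% of all genes. Without the library labelled Ing4+/+ Ing5+/+ replicate 2, 0 of the 10 were called against 0.375% of all genes, and their median was -0.58. With litter as a block, 0 of the 10 were called against 0.095% of all genes, and their median was -0.57, with adjusted p = 0.696 for Scx and 0.592 for Itga4.

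Against Ing4+/- Ing5+/+ hearts, which share the lost Ing4 allele, the 10 genes were again lower on average in Ing4+/- Ing5-/- hearts, with a median log2 fold change of -0.48 against -0.00 over all genes and 10 negative values against 50.3% of all genes. No gene of the 10 was called by edgeR, DESeq2 or limma-voom, against 1.16% of all genes in edgeR, and Scx and Itga4 passed an unadjusted p under 0.05, against 13.9% of all genes. Tbx18 and Itga4 were lower in every Ing4+/- Ing5-/- heart than in any Ing4+/- Ing5+/+ heart, against 4.88% of all genes. The log2 fold change was -0.70 ± 0.20 for Itga4 (edgeR adjusted p = 0.127) and -0.72 ± 0.31 for Scx (adjusted p = 0.289). Both Tbx18 (adjusted p = 0.0346) and Itga4 (0.00576) fell in the edgeR fit of these 8 hearts only, against 1.86% of all genes, and both fell when the library labelled Ing4+/+ Ing5-/- replicate 1 was left out (0.0286 for Tbx18 and 0.00237 for Itga4), against 2.9% of all genes. With litter as a block 0 of the 10 were called, against 0.494% of all genes. Without the 3 libraries 0 of the 10 were called, but the share of all genes in that fit is not given here, so this count cannot be set against it.

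Ing4+/- Ing5-/- hearts were also compared with Ing4+/+ Ing5-/- hearts, both without Ing5. The median log2 fold change of the 10 was -0.78 against -0.00 over all genes, and all 10 were negative against 51.1% of all genes. None was called by edgeR, DESeq2 or limma-voom, against 0.00634% of all genes in edgeR, although 7 had an unadjusted p under 0.05, against 6.63% of all genes. Itga4 alone did not overlap, against 1.64% of all genes, with a log2 fold change of -0.89 ± 0.20 (edgeR adjusted p = 0.418). Without the library labelled Ing4+/+ Ing5-/- replicate 1 the median was -0.23, Itga4 stood at -0.59 and Sema3d at 0.013, so most of this difference rested on 1 heart.

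The single losses gave smaller median differences from wild-type hearts. Only Sema3d and Wt1 differed more in size in Ing4+/+ Ing5-/- hearts (0.45 and 0.30) than in Ing4+/- Ing5-/- hearts (-0.14 and -0.24). In Ing4+/+ Ing5-/- hearts against wild-type hearts, 0 of the 10 were called against 0.0127% of all genes, and the median log2 fold change of 0.23 became -0.24 without replicate 1. In Ing4+/- Ing5+/+ hearts against wild-type hearts, 0 of the 10 were called against 0% of all genes, with a median of -0.09 and values between -0.28 and 0.06. In neither comparison did any of the 10 pass an unadjusted p under 0.05 in edgeR, against 9.59% of all genes for the loss of Ing5 and 4.73% for that of 1 Ing4 allele, and DESeq2 and limma-voom called none. The interaction, the departure from the sum of both losses on the log2 scale, called 0 of the 10 in edgeR, DESeq2 and limma-voom against 0% of all genes in edgeR, with 1 of the 10 at an unadjusted p under 0.05 against 5.88% of all genes. Its median of -0.72 became -0.15 without the library labelled Ing4+/+ Ing5-/- replicate 1, and Itga4, at -0.92 ± 0.29 (edgeR adjusted p = 0.830), became -0.62. Over both Ing4 backgrounds, Ing5-/- against Ing5+/+ hearts called 0 of the 10 in edgeR, DESeq2 and limma-voom against 2.13% of all genes in edgeR, and 0 at an unadjusted p under 0.05 against 16.9%, with a median of -0.15 that was -0.39 without that heart. Without that heart Tbx18 and Itga4 fell over both backgrounds, against 2.89% of all genes, and without the 3 libraries Tbx18, Tcf21 and Upk1b fell, against 2.79% of all genes. These comparisons share hearts with each other and with those above.

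**Figure D3:**
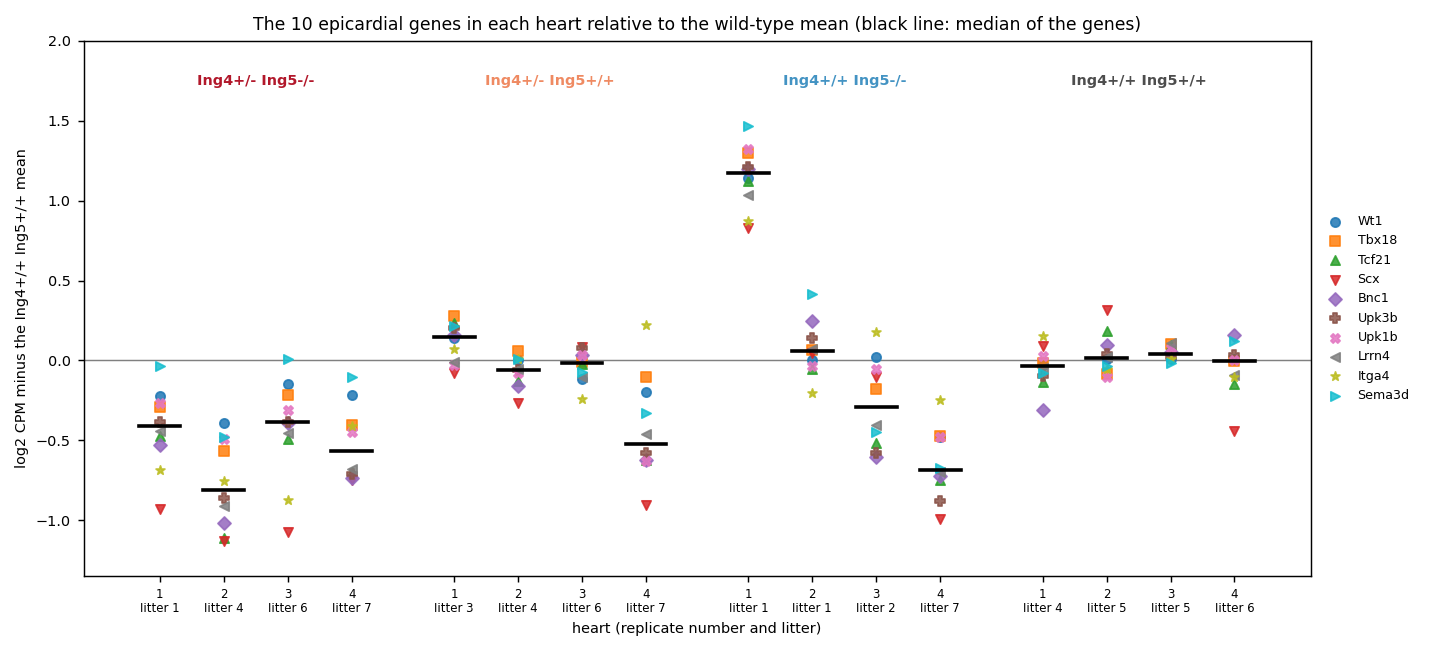
Log2 CPM minus the Ing4+/+ Ing5+/+ mean (y axis) of the 10 genes in each of the 16 hearts, grouped by genotype (x axis: replicate number and litter); symbols are genes and the black line is their median. The medians of Ing4+/- Ing5-/- hearts lie between -0.81 and -0.39, and those of Ing4+/+ Ing5-/- hearts run from -0.68 to 1.17.

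Heart by heart, the median of the 10 genes relative to the wild-type mean was -0.41, -0.81, -0.39 and -0.57 in Ing4+/- Ing5-/- hearts (log2 CPM difference). It was 0.15, -0.06, -0.02 and -0.52 in Ing4+/- Ing5+/+ hearts, 1.17, 0.06, -0.29 and -0.68 in Ing4+/+ Ing5-/- hearts and -0.04, 0.02, 0.04 and -0.00 in wild-type hearts. Low hearts thus occurred outside the Ing4+/- Ing5-/- group: replicate 4 of Ing4+/- Ing5+/+ and replicate 4 of Ing4+/+ Ing5-/- lay in its range. Both came from litter 7, which also held Ing4+/- Ing5-/- replicate 4. In the library labelled Ing4+/+ Ing5-/- replicate 1, the 10 genes stood 1.77 to 2.76 times above the wild-type mean.

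Litters gave comparisons of hearts of the same pregnancy. In litter 4, all 10 genes were lower in the Ing4+/- Ing5-/- heart than in its Ing4+/- Ing5+/+ littermate (median log2 difference -0.78) and than in its wild-type littermate (-0.74). In litter 6, 9 of 10 were lower than in the Ing4+/- Ing5+/+ littermate (median -0.38) and 10 of 10 than in the wild-type littermate (median -0.36). In litter 1, all 10 were lower in the Ing4+/- Ing5-/- heart than in the library labelled Ing4+/+ Ing5-/- replicate 1 (median -1.59) and replicate 2 (median -0.47). Litter 7 differed, since only 7 of 10 were lower in the Ing4+/- Ing5-/- heart than in its Ing4+/- Ing5+/+ littermate (median -0.09) and 2 of 10 than in its Ing4+/+ Ing5-/- littermate (median 0.06). The Ing4+/- Ing5+/+ hearts of litters 4 and 6 were close to their wild-type littermates, with a median of 0.02 in litter 4 and -0.01 in litter 6. Each of these contrasts is 1 heart against 1 heart, with no test.

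Markers of macrophages, red blood cells, neural cells and heart muscle were also compared between the groups. The 5 macrophage markers Ptprc, Csf1r, Cx3cr1, C1qa and Laptm5 summed to 30.0 to 43.9 CPM in Ing4+/- Ing5-/- hearts and 11.6 to 16.4 in Ing4+/- Ing5+/+ hearts. They summed to 15.4 to 37.7 CPM in Ing4+/+ Ing5-/- hearts and 8.76 to 13.7 in wild-type hearts. All 5 rose in Ing4+/- Ing5-/- against wild-type hearts (edgeR), against 0.855% of all genes called. Against Ing4+/- Ing5+/+ hearts 2 of 5 rose, Csf1r and Laptm5, against 1.16% of all genes. Against Ing4+/+ Ing5-/- hearts 0 of 5 were called, against 0.00634% of all genes. Haemoglobin genes took 1.59, 4.64, 1.80 and 0.763% of reads in Ing4+/- Ing5-/- hearts, 0.484 to 1.94% in Ing4+/- Ing5+/+ hearts, 0.545 to 3.22% in Ing4+/+ Ing5-/- hearts and 0.870 to 1.16% in wild-type hearts. No red blood cell marker passed the test, 0 of 8. Replicate 2, the lowest Ing4+/- Ing5-/- heart for 9 of the 10 genes, held the most haemoglobin, and Ing4+/+ Ing5-/- replicate 4, the lowest of its group, came second. Other hearts differed from this order. Ing4+/- Ing5-/- replicate 4 had the least haemoglobin of its group, yet its median of the 10 genes, -0.57, was below those of replicates 1 and 3. Ing4+/- Ing5+/+ replicate 3 had the most of its group, 1.94%, and a median of -0.02. With the haemoglobin level as a covariate, the median log2 fold change of the 10 in Ing4+/- Ing5-/- hearts was -0.46 against wild-type hearts, where it was -0.59 without the covariate. It was -0.33 against Ing4+/- Ing5+/+ hearts, where it was -0.48 without, and -0.07 for Ing5-/- against Ing5+/+ hearts over both backgrounds, where it was -0.15 without. Of the markers of neural crest and neurons, Sox10, Tubb3 and Elavl3 were tested and 0 of the 3 passed in Ing4+/- Ing5-/- against wild-type hearts, with a median log2 fold change of -0.46. Tubb3, a tubulin gene of neurons, ranged from 11.2 to 16.2 CPM in Ing4+/- Ing5-/- hearts, 17.0 to 21.1 in Ing4+/- Ing5+/+ hearts, 14.8 to 28.0 in Ing4+/+ Ing5-/- hearts and 17.4 to 25.3 in wild-type hearts. Its Ing4+/- Ing5-/- hearts thus lay below all hearts with intact Ing5. Singly, 4.71% of all genes were lower in this way against wild-type hearts and 4.88% against Ing4+/- Ing5+/+ hearts, and the joint share was not counted. The 7 cardiomyocyte markers overlapped between Ing4+/- Ing5-/- and wild-type hearts in their sum. Against Ing4+/- Ing5+/+ hearts the sum was higher in every Ing4+/- Ing5-/- heart. Its lowest value was 18258 CPM in Ing4+/- Ing5-/- hearts and its highest 18083 CPM in Ing4+/- Ing5+/+ hearts. Taken singly, the markers did not rise together in that comparison: 4 log2 fold changes were negative and 3 positive, with a median of -0.04. Of these 7 markers 0 were called, against 1.16% of all genes in edgeR. The part of macrophages and of neural and muscle cells in the results was not tested.

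Each gene was also divided by Wt1 in the same heart. Against wild-type hearts, the ratio to Wt1 was lower in every Ing4+/- Ing5-/- heart for Tcf21, Scx, Upk3b, Lrrn4 and Itga4. It overlapped for Tbx18, Bnc1, Upk1b and Sema3d. Of all other tested genes, 0.558% had a ratio to Wt1 that was lower in this way, against 4.71% of all genes by CPM. Wt1 itself was lower in every Ing4+/- Ing5-/- heart than in any wild-type heart, so the ratio of an unchanged gene rises. The 0.558% is small partly for that reason, and a lower ratio restates a larger fall than that of Wt1. The ratio of Itga4 to Wt1 was 1.32, 1.41, 1.10 and 1.58 in Ing4+/- Ing5-/- hearts and 1.73, 1.81, 1.66 and 2.42 in Ing4+/- Ing5+/+ hearts. It was 1.50, 1.57, 2.03 and 2.13 in Ing4+/+ Ing5-/- hearts and 2.05, 1.73, 1.81 and 1.68 in wild-type hearts. For Itga4 the ratio was thus lower in every Ing4+/- Ing5-/- heart than in any heart with intact Ing5, for which no joint share of all genes was counted. Against Ing4+/- Ing5+/+ hearts, the ratios of Itga4 and Tbx18 were lower in every Ing4+/- Ing5-/- heart, against 0.64% of all other tested genes. Those of the other 7 genes overlapped. Wt1 averaged lower in this comparison too (log2 fold change -0.21 ± 0.26), which also makes that share smaller. The ratio of Tbx18 stood at 1.46, 1.36, 1.47 and 1.35 in Ing4+/- Ing5-/- hearts against 1.69, 1.59, 1.65 and 1.63 in Ing4+/- Ing5+/+ hearts.

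Across the 16 hearts most of the 10 genes varied together. With the genotype means subtracted, the 45 pairs had a median Pearson r of 0.915, from 0.441 to 0.983, and a median Spearman rho of 0.747. With permutation tests (two-sided, 100000 resamples, adjusted over 45 pairs), 43 pairs passed an adjusted p of 0.05 by Pearson, all at r of 0.531 or more, and 33 by Spearman. These tests swap the centred values freely between all hearts. Yet values of a genotype depend on each other once its mean is subtracted, and Ing4+/+ Ing5-/- hearts spread far more than the others. The permutation p-values, here and below, are therefore approximate. Of all 65935386 pairs of the 11484 tested genes of at least 5 CPM, 8.27% had an r of 0.531 or more, and the median r was 0.00361. Without subtraction, the median was 0.893 by Pearson and 0.785 by Spearman. The library labelled Ing4+/+ Ing5-/- replicate 1 carried part of this: without it the median r was 0.738, with a range from -0.466 to 0.959, and 36 pairs passed by Pearson, all at r of 0.548 or more, against 6.89% of all gene pairs at that r, and 30 by Spearman. Likewise, without the 2 hearts farthest from the median of the first gene of each pair the median r was 0.694. CPM values are shares of 1 library, which all genes of a heart have in common.

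**Figure D4:**
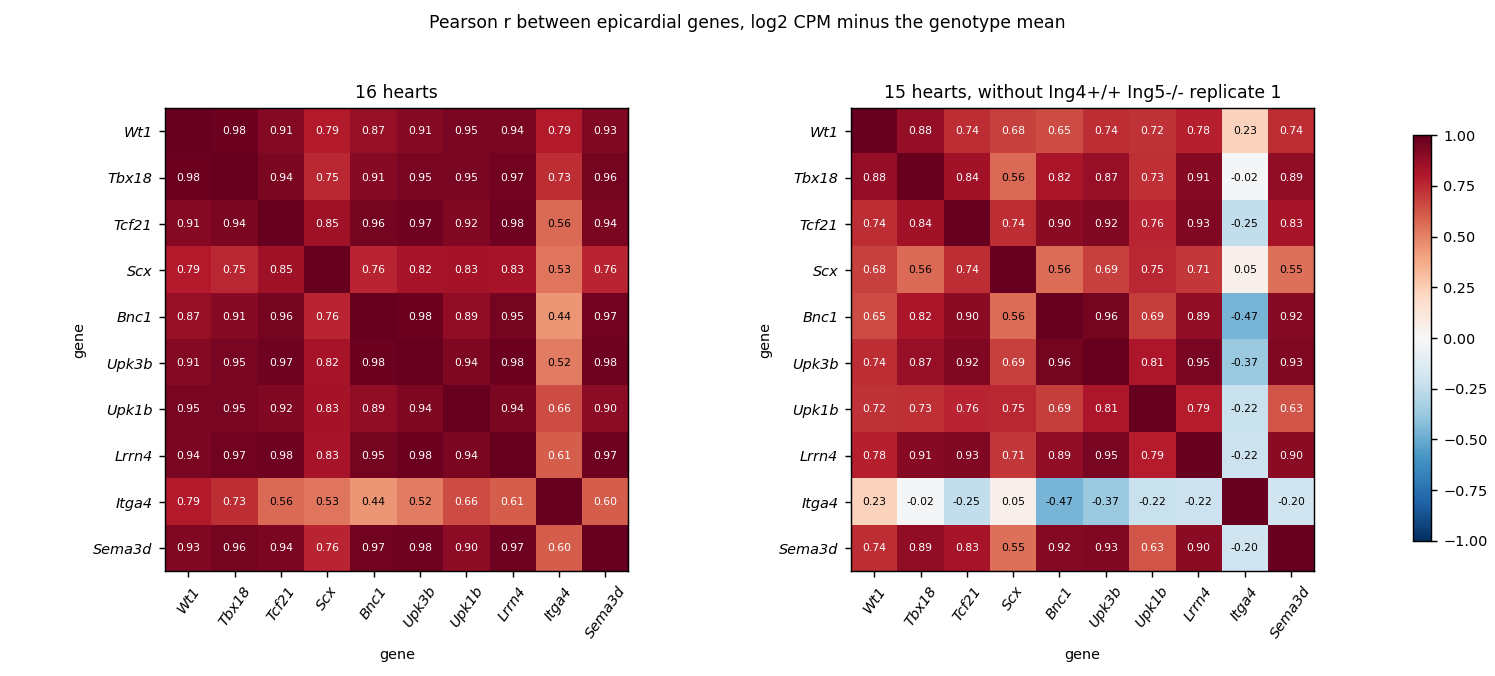
Pearson r between each pair of the 10 genes (both axes: gene) over hearts, on log2 CPM minus the genotype mean, with all 16 hearts and without the library labelled Ing4+/+ Ing5-/- replicate 1. The median of 45 pairs is 0.915 with all hearts and 0.738 without that heart, where the row of Itga4 turns to between -0.466 and 0.232.

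Upk3b and Lrrn4, both mesothelial surface genes, were the closest pair, with r = 0.983 and rho = 0.894 (permutation p = 1e-05, the smallest the resamples can give; adjusted p = 2.3e-05). Their r was 0.953 without the library labelled Ing4+/+ Ing5-/- replicate 1 and 0.940 without the 2 farthest hearts. Upk3b and Bnc1 had r = 0.982, or 0.959 without that replicate, and Wt1 and Tbx18 had r = 0.980. Itga4 stood apart. Its median r with the other 9 genes was 0.603, against 0.792 for Scx to 0.954 for Lrrn4, and without the library labelled Ing4+/+ Ing5-/- replicate 1 it was -0.217, against 0.683 to 0.890 for the others. The pair Upk3b and Itga4 had r = 0.520 and rho = 0.0206 (adjusted permutation p = 0.0513), and r = -0.370 without that replicate and -0.498 without the 2 farthest hearts. Bnc1 and Itga4 had r = 0.441 and rho = -0.0412 (permutation p = 0.0890), and r = -0.466 without that replicate. The relation of Itga4 to these genes within genotypes thus rested on 1 heart.

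**Figure D5:**
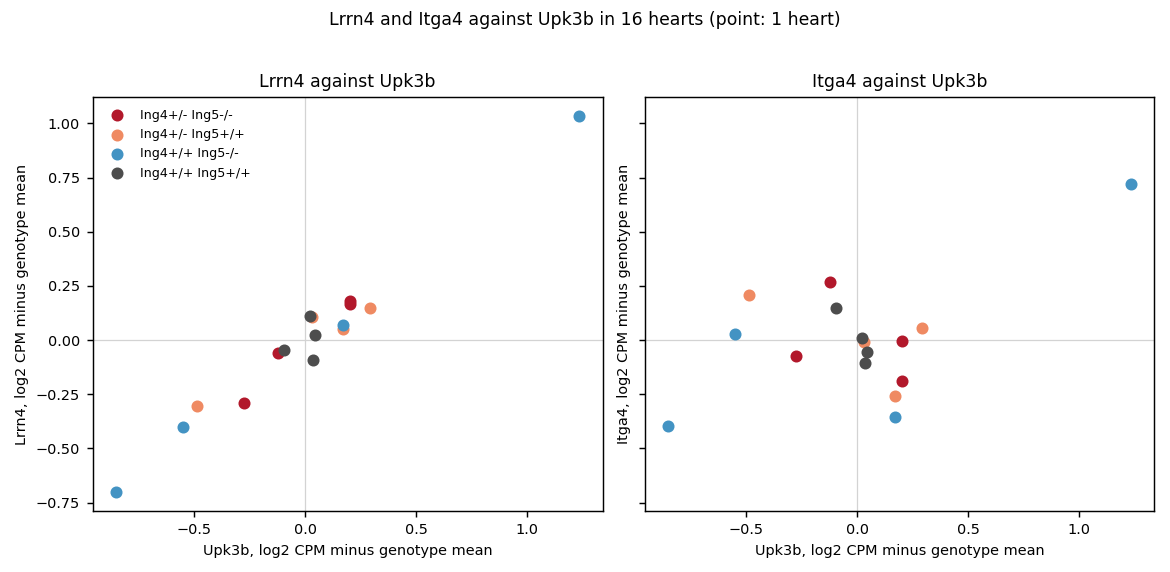
Lrrn4 and Itga4 (y axes) against Upk3b (x axes) in the 16 hearts, as log2 CPM minus the genotype mean; each point is 1 heart, coloured by genotype. The points of Lrrn4 follow those of Upk3b (r = 0.983), and those of Itga4 do so at r = 0.520 with all hearts and -0.370 without the library labelled Ing4+/+ Ing5-/- replicate 1.

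The genes outside the 10 with the most similar pattern were found by the same centred r among tested genes of at least 5 CPM, as a description. For Wt1 they were Ptpn13 (r = 0.973), Tnks1bp1 (0.964), Ctsf (0.958), Stk26 (0.956) and Egfr (0.954) over 16 hearts. Upk3b had Aldh1a2 (r = 0.984), Krt7 (0.981), Smpd3 (0.980), Itga3 (0.975) and Dcn (0.975). Tcf21 had Ildr2 (r = 0.977), Myrf (0.970), Aldh1a2 (0.968), Prkcb (0.963) and Bicc1 (0.963). Without the library labelled Ing4+/+ Ing5-/- replicate 1, the nearest genes of Wt1 were Pard6b, Tnks1bp1, Unc5b, Axl and Actr3b, those of Upk3b were Kcne1l, Smpd3, Bicc1, Krt7 and Aldh1a2, and those of Tcf21 were Loxl1, Kctd10, Cpe, Bicc1 and Bcam. Among all 15784 other tested genes, Tbx18 was the closest to Wt1, and Lrrn4, Bnc1 and Sema3d ranked 2, 3 and 6 for Upk3b. Itga4 ranked 2127 for Upk3b with all hearts and 12539 without the library labelled Ing4+/+ Ing5-/- replicate 1.

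Of 21 other epicardial and mesothelial genes tested, 1 rose and 0 fell in Ing4+/- Ing5-/- against wild-type hearts, against 0.855% of all genes called in either direction, with a median log2 fold change of -0.12. The gene that rose was Krt19, a keratin of simple epithelia and mesothelium, at 80.3 ± 8.73 CPM in Ing4+/- Ing5-/- hearts and 49.1 ± 3.49 CPM in wild-type hearts (log2 fold change 0.71 ± 0.12, edgeR adjusted p = 0.00501, or 0.0941 with litter as a block). Krt19 also rose against Ing4+/- Ing5+/+ hearts, which averaged 39.4 ± 4.51 CPM (1.03 ± 0.12, edgeR adjusted p = 0.000174), where again 1 of 21 rose and 0 fell, against 1.16% of all genes called. Podxl, a sialomucin of podocytes and mesothelium, averaged 353 ± 10.4 CPM in Ing4+/- Ing5-/- hearts and 387 ± 29.5 CPM in wild-type hearts and did not pass the test. The summed level of the 22 genes of the list was 1406 to 1654 CPM in Ing4+/- Ing5-/- hearts and 1518 to 1721 CPM in wild-type hearts.

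Among the family members of the 10, 17 of 22 were tested, and in Ing4+/- Ing5-/- against wild-type hearts 0 rose and 1 fell, against 0.855% of all genes called, with a median of -0.15. The gene that fell was Lrrn2, a relative of Lrrn4, at 7.85 ± 1.98 CPM in Ing4+/- Ing5-/- hearts and 14.3 ± 1.98 CPM in wild-type hearts (log2 fold change -0.86 ± 0.17, edgeR adjusted p = 0.0143). That call was lost with litter as a block (adjusted p = 0.230), without Ing4+/- Ing5-/- replicate 2 (0.0590) and without wild-type replicate 3 (0.0825). Against Ing4+/- Ing5+/+ hearts, Lrrn2 and Lrrn3 fell and Sema3b, a secreted semaphorin, rose, 3 of 17 against 1.16% of all genes called, with a median of -0.14 over the 17; the call of Lrrn2 was lost in 8 of 29 alternative fits, that of Lrrn3 in 5 and that of Sema3b in 5. Lrrn3 averaged 4.55 CPM in Ing4+/- Ing5-/- hearts and 8.11 CPM in Ing4+/- Ing5+/+ hearts (-0.83 ± 0.17, edgeR adjusted p = 0.0167), and Sema3b 17.5 CPM in Ing4+/- Ing5-/- hearts and 9.33 CPM in Ing4+/- Ing5+/+ hearts (0.91 ± 0.19, adjusted p = 0.0228). Tbx20, the T-box gene of heart muscle, averaged 431.5 CPM in Ing4+/- Ing5-/- hearts, 531.5 in Ing4+/- Ing5+/+ hearts and 480.1 in wild-type hearts, and did not pass either test.

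Of 18 partners and ligands of the surface proteins tested, 0 passed in Ing4+/- Ing5-/- against wild-type hearts, against 0.855% of all genes called, with 10 negative and 8 positive log2 fold changes. Against Ing4+/- Ing5+/+ hearts, 1 fell and 0 rose, against 1.16% of all genes called: Nrp2, a neuropilin that binds secreted semaphorins, at 33.0 ± 7.68 CPM in Ing4+/- Ing5-/- hearts and 49.4 ± 1.42 CPM in Ing4+/- Ing5+/+ hearts (log2 fold change -0.58 ± 0.14, edgeR adjusted p = 0.0423). That call was lost in 15 of 29 alternative fits. Itgb1, the integrin partner of Itga4, averaged 1006 ± 87.0 CPM in Ing4+/- Ing5-/- hearts, 1066 ± 62.5 in Ing4+/- Ing5+/+ hearts and 1024 ± 70.2 in wild-type hearts, and did not pass either test.

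Of 15 genes of the proepicardium and the septum transversum beside it, 1 fell and 0 rose in Ing4+/- Ing5-/- against wild-type hearts, against 0.855% of all genes called, with a median of -0.11. This was Mab21l2, at 15.2 ± 3.02 CPM in Ing4+/- Ing5-/- hearts and 23.7 ± 3.22 CPM in wild-type hearts (log2 fold change -0.64 ± 0.13, edgeR adjusted p = 0.0244, or 0.354 with litter as a block). Against Ing4+/- Ing5+/+ hearts, Mab21l2 fell again (-0.62, edgeR adjusted p = 0.0239), and so did Barx1, a homeobox gene, 2 of 15 against 1.16% of all genes called. Barx1 stood at 1.51 ± 0.205 CPM in Ing4+/- Ing5-/- hearts and 3.65 ± 0.960 CPM in Ing4+/- Ing5+/+ hearts (-1.27 ± 0.24, adjusted p = 0.0104, or 0.0793 with litter as a block). The call of Mab21l2 in this comparison was lost in 7 of 29 alternative fits. The median of the list in that comparison was -0.37. Gata4, a zinc finger factor needed for the proepicardium, averaged 391 ± 30.8 CPM in Ing4+/- Ing5-/- hearts, 415 ± 37.2 in Ing4+/- Ing5+/+ hearts and 422 ± 17.8 in wild-type hearts, and did not pass either test.

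Over both Ing4 backgrounds, several genes of these lists passed the test in Ing5-/- against Ing5+/+ hearts (8 hearts each), where 2.13% of all genes were called. Krt19 rose by 0.74 ± 0.08 on the log2 scale (edgeR adjusted p = 8.33e-05), Krt8, its keratin partner in simple epithelia, by 0.56 ± 0.10 (0.00878) and Sema3e, a secreted semaphorin, by 0.83 ± 0.20 (0.0341). Lrrn2 fell by 0.61 ± 0.12 (edgeR adjusted p = 0.00713), Lrrn3 by 0.63 ± 0.12 (0.00616), Mab21l2 by 0.44 ± 0.09 (0.0154) and Zfpm2, a cofactor of GATA4, by 0.32 ± 0.08 (0.0357). With litter as a block, Krt19 alone of these 7 remained called, against 0.108% of all genes. The call of Sema3e was lost in 14 of 28 alternative fits and that of Zfpm2 in 13 of 28. The partners and ligands had 0 of 18 called. The 2 keratins were thus higher in Ing5-/- hearts.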

How the data were processed

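The deposited values were raw read counts per gene, made by the authors with featureCounts on the mm10 build after bcl2fastq, per the submitters' processing notes (versions not given). RNA came from a column kit and the libraries from a strand-keeping kit, per the labels' protocols; the labels state no aligner, annotation or strand setting of the counting. The deposited gene length in bases was used only for RPKM. All 16 single-sample tables equalled the series table. Of 27179 gene IDs, 25275 were matched to a symbol, and the others took 2.08% of reads. Mouse mm10 is GRCm38, and promoters came from RefSeq (GRCm38.p6).

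Genes were tested with edgeR 4.0.16 in R 4.3.3 (robust quasi-likelihood fit of 4 group means, all 16 hearts, low-count filter by group, TMM factors from 0.967 to 1.08), limma 3.58.1 and DESeq2 1.42.0. The filter kept 15785 genes and removed 11394, and all 10 epicardial genes passed it. Adjusted p-values are Benjamini-Hochberg over all genes tested, called under 0.05. The SE is the log2 fold change divided by the square root of F, and the biological coefficient of variation was 0.159. Log2 CPM used a prior count of 0.5. Correlations were computed in Python 3.11.15 with numpy 2.4.6, scipy 1.17.1 and pandas 2.3.3. The pipeline was tested on simulated data.

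The 10 genes, the gene lists and the tests were chosen with earlier results of these data known. Named were the 10 genes, the 5 nearest genes of Wt1, Upk3b and Tcf21, and, of each list, every called gene and up to 4 others by level. Each heart is 1 embryo. Between hearts of a genotype, the chi-square of counts divided by its degrees of freedom was 6.39 to 102, more than counting error. Litter was not in the model, since genotype and litter overlap; 0 litters held both Ing4+/+ Ing5-/- and Ing4+/+ Ing5+/+ embryos. Same-numbered hearts deviated together (correlation above 0.1) in 4 of 24 pairs, so numbers were not taken as pairs. Alternatives were DESeq2 size factors, other filters, only the groups compared, DESeq2, limma-voom, litter or replicate number as a block, litter as a random effect, haemoglobin or Y-linked level as a covariate, leaving out libraries and, added after seeing the data, a fit that was not robust.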

Additional observations from a re-analysis of the deposited data

Results flagged for a closer look

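The 10 epicardial genes in 4 genotypes made 40 groups of 4 hearts, each checked for a heart whose gap to its nearest neighbour took most of the group's range. Chance flags about 1 in 20 such groups, and 3 of the 40 were flagged. Wild-type replicate 1 stood below the other wild-type hearts for Wt1, at 66.4 CPM, and for Upk3b, at 157 CPM. Both gaps were small in absolute size, since the other wild-type hearts were nearly equal. Upk1b stood at 109 CPM in the library labelled Ing4+/+ Ing5-/- replicate 1, far above the other hearts of its genotype, which is the heart with the highest level of all 10 genes. The same heart had 22.6 CPM of summed liver bud markers and 37.7 CPM of summed macrophage markers, and their part in its epicardial levels was not tested.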

How the results depend on the processing

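Over the alternatives, 290 values of the 10 log2 fold changes were recomputed for each comparison of Ing4+/- Ing5-/- hearts. Against wild-type hearts 1 turned sign, against Ing4+/- Ing5+/+ hearts 1 and against Ing4+/+ Ing5-/- hearts 2, all of them Sema3d. Sema3d was at 0.030 against wild-type and 0.096 against Ing4+/- Ing5+/+ hearts with haemoglobin as a covariate. Against Ing4+/+ Ing5-/- hearts it was at 0.11 without the 3 libraries that stood apart (Ing4+/- Ing5+/+ replicate 4, the library labelled Ing4+/+ Ing5-/- replicate 1 and Ing4+/- Ing5-/- replicate 2) and from -0.83 to 0.013 leaving out 1 heart at a time; its interaction was at 0.059 and from -0.79 to 0.047 in the same fits. The count of the 10 called against wild-type hearts was 8 with only the groups compared, 2 without the 3 libraries (Scx and Itga4) and 0 to 2 leaving out 1 heart. Against Ing4+/- Ing5+/+ hearts it was 2 with only the groups compared and 0 to 2 leaving out 1 heart. Over both Ing4 backgrounds it was 3 without the 3 libraries (Tbx18, Tcf21 and Upk1b; 440 of 15762 genes called in all) and 0 to 2 leaving out 1 heart (Tbx18 and Itga4 without the library labelled Ing4+/+ Ing5-/- replicate 1; 459 of 15877 genes). There Tbx18 was at 0.022 with haemoglobin as a covariate, against -0.037 without, and ranged from -0.30 to 0.061 leaving out 1 heart. The median of the 10 in Ing4+/+ Ing5-/- against wild-type hearts turned to -0.24 without the 3 libraries and ranged from -0.24 to 0.45 leaving out 1 heart. In Ing4+/- Ing5+/+ against wild-type hearts it was 0.0052 without the 3 libraries and ranged from -0.18 to 0.0086, turning without Ing4+/- Ing5+/+ replicate 4. The median r of the 45 pairs ranged from 0.738 to 0.942 leaving out 1 heart, and 6 of 10 genes kept their place in the RPKM order by median. The cause of these changes was not tested beyond the hearts each fit leaves out.

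Over all genes, the number called in Ing4+/- Ing5-/- against wild-type hearts was 135, against 465 with only the groups compared, 325 with DESeq2, 78 with limma-voom, 15 with litter as a block, 79 with litter as a random effect, 90 with haemoglobin as a covariate, 315 without the 3 libraries and 37 to 321 leaving out 1 heart. With the replicate number as a block, 128 genes and 0 of the 10 were called, with adjusted p = 0.145 for Scx and 0.171 for Itga4; same-numbered hearts share only a number. Scx had 44 to 219 reads per heart, which limits its precision more than that of the other 9.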
